A study of Mus musculus with 4 samples.

Results

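The genes described here encode the machinery that acidifies and empties the lysosome: the vacuolar proton pump (V-ATPase) and its accessory proteins, the cathepsin proteases, and 6 proteins of the lysosome membrane. They were measured on Affymetrix arrays in mammary epithelial cells of 4 week-old mice. The members were taken by gene symbol, with the probe set of highest mean over the 4 arrays standing for each gene, and they number 49 of the 22180 genes with 1 symbol per probe set. Atp6v1f was chosen by its difference between the groups in these same arrays, so its difference is given as a description with no test.

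In 2 samples the mice were Cre-expressing (MMTV-Cre+), meaning that they carried Cre recombinase under the promoter of the mouse mammary tumour virus (its long terminal repeat). The other 2 samples came from wild-type littermates. All mice were on the congenic FVB/NJ background, and the labels name no floxed allele and no treatment. The cells were aggregates from collagenase-digested inguinal glands after centrifugation against stroma, and each is labelled a biological replicate, with no word on how many mice stood behind it. Values are log2 signals as the authors made them by RMA, and replicate 1 is given before replicate 2 throughout.

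The 14 epithelial markers were all above the limit for dim genes in every array. Of these 14, 5 were higher in both MMTV-Cre arrays (35.7%, background 16.7%) and 2 were lower in both (14.3%, background 16.5%). The higher ones were Acta2, the actin gene of myoepithelial cells (0.40, 95% interval 0.06 to 0.75, adjusted p = 0.964), the luminal keratin gene Krt18 (0.18) and the tight junction genes Cldn3, Cldn4 and Cldn7 (0.17 to 0.19). The 2 lower ones were Krt8, also a luminal keratin gene (−0.06), and the adhesion gene Cdh1 (−0.13). The basal keratin gene Krt14 differed by −0.33 (−1.03 to 0.37) and the adhesion gene Epcam by −0.03 (−0.33 to 0.27), both with overlap. The part of epithelial composition in the results was not tested. Wild-type replicate 1 stood apart from the other arrays. The linear signal summed over 13 measured T and NK cell markers was 116.0 and 109.6 in MMTV-Cre, against 549.7 and 118.8 in wild-type. For 7 measured B cell markers it was 41.3 and 45.7 in MMTV-Cre, against 212.1 and 42.0 in wild-type. Results that rest on that array are given with and without it. Fewer cells of a type and less RNA per cell cannot be told apart in these samples.

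The V-ATPase pumps protons into lysosomes, endosomes and secretory vesicles. Its V1 part lies in the cytosol and splits ATP, and its V0 part lies in the membrane and carries the protons, with a central rotor that couples both and outer stalks that hold V1 still. The acid activates cathepsins, which cut proteins inside the lysosome, while heavily glycosylated proteins such as LAMP1 line its membrane. In the mammary gland, lysosomal proteases are known for their part in the regression of the epithelium after lactation. Transcription factors of the TFEB family switch many of these genes together by binding a site built round the letters CACGTG.

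That site is shown because it is a feature several members share and the naming rule did not use. RefSeq promoters of mouse build GRCm38.p6, from 250 bases before to 50 after the start site, were matched for 37 of the 49 members. The letters CACGTG, which read the same on both strands, occurred in 10 of them (27%), against 8.09% of the 27025 genes in the promoter table. Among genes above the dim limit the shares were 10 of 26 members (38.5%) and 11.3% of 9109 genes. The 10 were 4 V-ATPase genes, 4 cathepsin genes and 2 membrane protein genes, and none of the 11 matched dim members had it. The following windows run 5′ to 3′ on the gene's own strand, with the matched letters in capitals. They come from Atp6v1a on the minus strand at chr16:44139373-44139402, Atp6v0b on the minus strand at chr4:117887348-117887377, Atp6v0e on the plus strand at chr17:26676387-26676416, Ctsd on the minus strand at chr7:142387908-142387937, Lamp1 on the plus strand at chr8:13159088-13159117 and Mcoln1 on the plus strand at chr8:3500462-3500491.
Atp6v1a: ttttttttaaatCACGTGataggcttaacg
Atp6v0b: gtgcgcgggggtCACGTGgggtcggcgcat
Atp6v0e: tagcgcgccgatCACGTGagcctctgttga
Ctsd: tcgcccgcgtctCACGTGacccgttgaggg
Lamp1: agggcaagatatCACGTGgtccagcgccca
Mcoln1: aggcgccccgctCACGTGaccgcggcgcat
Lamp1 held 4 copies in its promoter, and Atp6v0b, Ctsa, Ctsd and Mcoln1 held 2 each.

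The 250 bases before the start of Atp6v1f, at chr6:29467533-29467782 on the plus strand, are shown for comparison and have 54.4% G and C. No CACGTG lies in them or in the 50 bases that follow.
Atp6v1f: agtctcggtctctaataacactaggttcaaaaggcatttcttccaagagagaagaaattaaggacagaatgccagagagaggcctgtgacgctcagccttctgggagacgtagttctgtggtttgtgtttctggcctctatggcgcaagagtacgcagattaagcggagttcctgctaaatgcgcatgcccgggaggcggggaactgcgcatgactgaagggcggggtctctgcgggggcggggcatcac
The log2 differences of the 10 tested members with the letters ran from −0.08 to 0.23 with a median of 0.05. Those of the 16 tested and matched members without them ran from −0.77 to 0.36, also with a median of 0.05. The shares and medians are descriptions, and a match shows neither that a factor binds nor that it does not.

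The comparison asks whether lysosomal genes differ between Cre-expressing and wild-type glands, and whether Atp6v1f stands apart from the rest. Of the 49 members, 36 had a mean of 2.84 or more, a limit set at the median of all probe-set means, and were tested with all other genes at that level by limma. None of the 36 passed at an adjusted p under 0.05, where the background was 0% of the 11668 genes tested. The 35 tested members besides Atp6v1f had adjusted p from 0.964 to 0.998, and 1 of them, Ctsw, had an unadjusted p under 0.05, against a background of 4.32%. Both MMTV-Cre arrays lay below both wild-type arrays in 7 of the 36 (19.4%, background 16.5%) and above both in 7 (19.4%, background 16.7%), shares close to those of all genes. With a median log2 difference of 0.03, against −0.00 over all genes tested, the members as a group lay close to 0. Their differences were below 0.1 in size in 21 of 36 (58.3%), against 48.3% of all genes tested. The median half-width of a 95% interval, not adjusted for the number of genes, was 0.30 log2 units. Differences of that size in single members were not detectable with 4 arrays. Larger ones did not pass either, as the smallest limma adjusted p over all genes tested was 0.964.

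**Figure D1:**
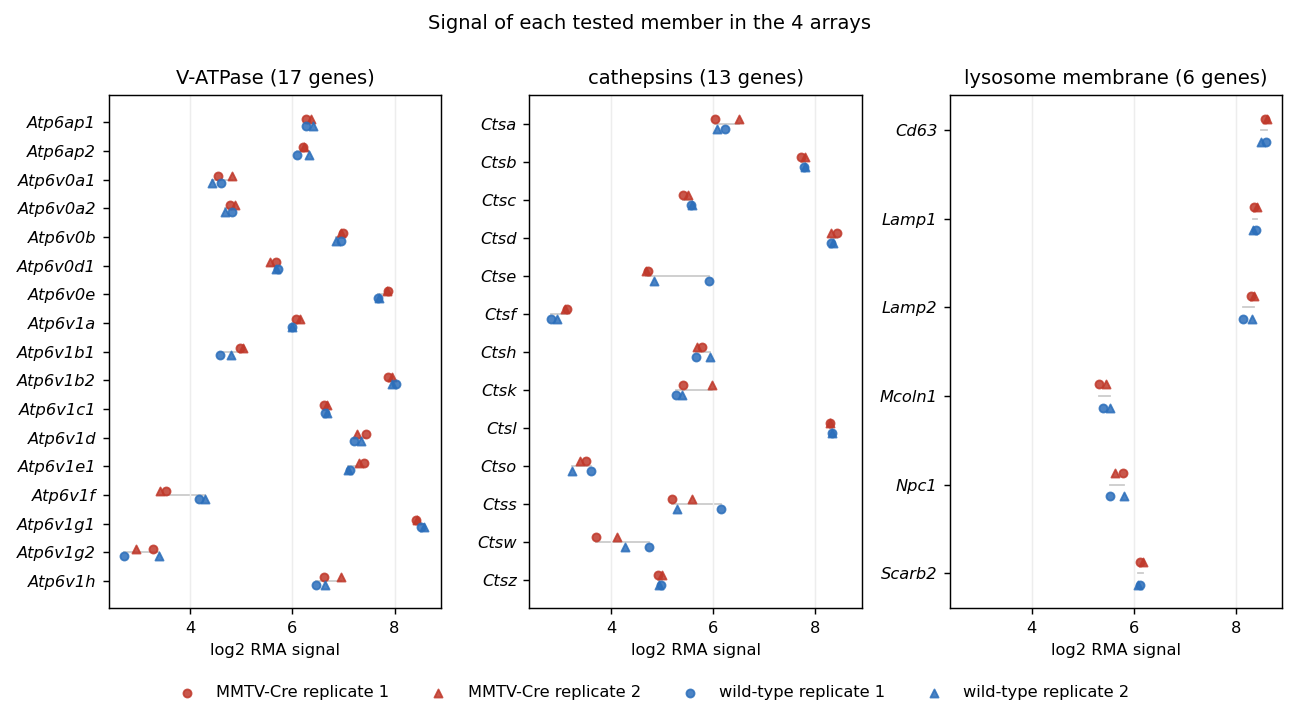
Log2 RMA signal (x axis) of the 36 tested members, in panels for V-ATPase, cathepsin and lysosome membrane genes. Each point is 1 array, with MMTV-Cre in red above wild-type in blue, circles for replicate 1, triangles for replicate 2, and a grey line for the range. Atp6v1f, at 3.51 and 3.41 in MMTV-Cre against 4.17 and 4.30 in wild-type, shows a wide gap between tight pairs, and Ctse is pulled out by wild-type replicate 1 alone.

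Atp6v1f encodes subunit F, a small protein of the rotor that turns inside V1. The gene lies on chromosome 6 from 29467783 to 29470509 (GRCm38.p6), and 1 probe set represents it. Its log2 signal was 3.51 and 3.41 in the MMTV-Cre arrays, against 4.17 and 4.30 in the wild-type arrays. Both MMTV-Cre arrays were low and both wild-type arrays high, and the pairs were 0.66 apart at their nearest and 0.89 at their farthest. The mean was 3.46 ± 0.08 in MMTV-Cre and 4.24 ± 0.09 in wild-type (SD, n = 2 each), a log2 difference of −0.77, or 1.71-fold higher in wild-type. The arrays of 1 group differed by 0.11 in MMTV-Cre and by 0.12 in wild-type, so the difference between the means was 6.38 times the larger of these gaps. That ratio was higher in 2 other tested members, Ctsl (26.3) and Atp6v0e (7.71), whose log2 differences were only −0.05 and 0.18.

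By size, the difference of Atp6v1f ranked first among the 36 tested members and 67 among the 11668 genes tested. It exceeded the next tested member, Ctse, by 0.10, and the next tested V-ATPase gene, Atp6v1b1, had a difference of 0.31. Besides Atp6v1f, group means at least 1.5-fold apart were found in 2 of the 35 other tested members (5.71%, background 1.24%), which were Ctse and Ctsw. Without wild-type replicate 1 the differences of these 2 shrank to −0.13 and −0.36. Since Atp6v1f was singled out for this measure, its place in these ranks supports nothing. In the same arrays, 26 tested genes were lower in MMTV-Cre by at least as much with groups that did not overlap, Atp6v1f included.

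Without MMTV-Cre replicate 1 the difference was −0.83, without MMTV-Cre replicate 2 it was −0.72, without wild-type replicate 1 it was −0.83 and without wild-type replicate 2 it was −0.71. Among the 17 tested V-ATPase genes Atp6v1f ranked first in each of these 4 settings. The largest difference of another tested V-ATPase gene was 0.40 (Atp6v1h), 0.29 (Atp6v1e1), −0.28 (Atp6v1g2) and 0.41 (Atp6v1b1) in the same order. Among all 36 tested members Atp6v1f ranked first without MMTV-Cre replicate 1 and without wild-type replicate 1. Its rank was 2, behind Ctsw, without MMTV-Cre replicate 2, and 4, behind Ctse, Ctsw and Ctss, without wild-type replicate 2. The differences of those 3 cathepsins grew to −1.22, −0.83 and −0.76 when wild-type replicate 1 stood alone for its group. All these settings reuse the values by which Atp6v1f was chosen, so its ranks in them support nothing.

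**Figure D2:**
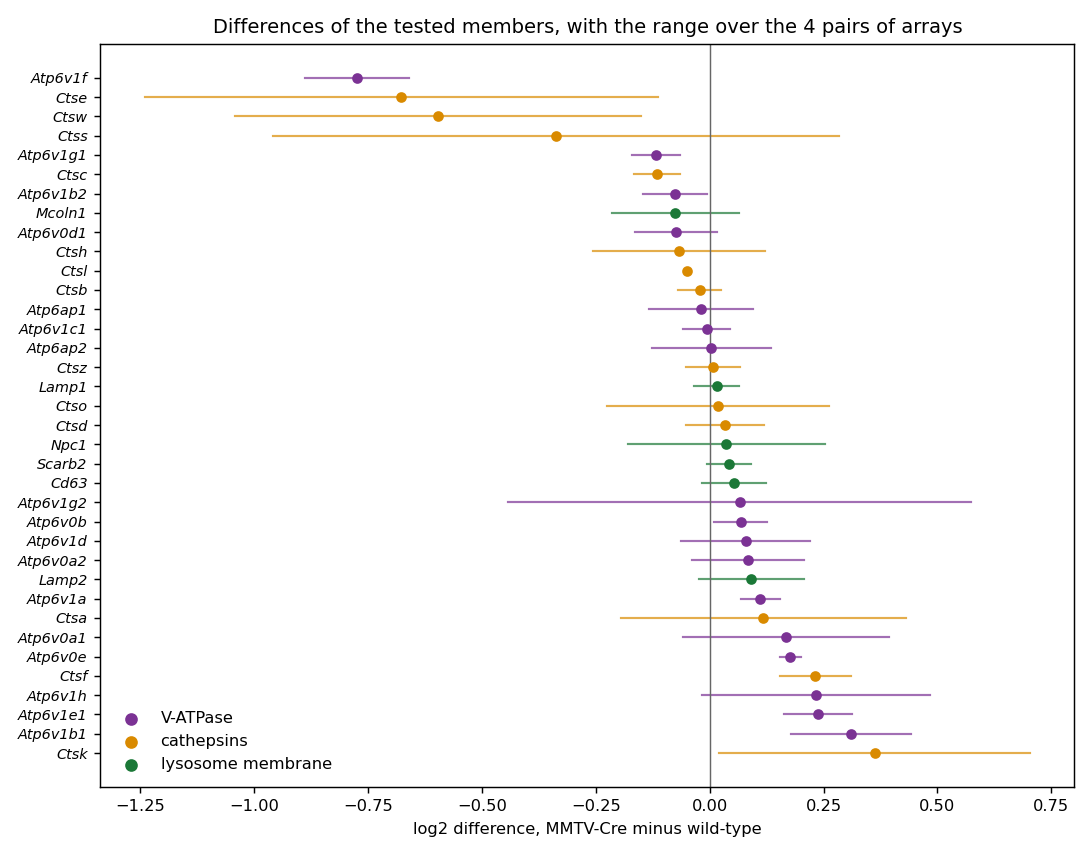
Log2 difference, MMTV-Cre minus wild-type (x axis), for the 36 tested members in order of difference, coloured by class. Points are differences of the group means, and lines run over the 4 pairs of an MMTV-Cre with a wild-type array. Atp6v1f lies at −0.77 with a short line, Ctse, Ctsw and Ctss have long lines, and 27 of the 36 points lie within 0.2 of 0.

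Atp6v1f had a mean of 3.85 over the 4 arrays, 1.01 above the limit for dim genes, and 31.0% of the genes tested had a lower mean. Of the 1482 tested genes whose mean lay within 0.25 of its own, 14 (0.945%) had a difference at least as large in size, Atp6v1f included. Since Atp6v1f was chosen by this difference, that share is a description and measures no probability.

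Some mast cell genes, like Atp6v1f, were lower in MMTV-Cre without overlap. Of the 6 tested neutrophil and mast cell markers 4 were lower in both MMTV-Cre arrays (66.7%, background 16.5%), and 3 of those were the mast cell protease genes Mcpt4, Cma1 and Cpa3. Mcpt4 stood at 2.69 and 3.06 in MMTV-Cre, against 3.77 and 3.73 in wild-type (difference −0.87, 95% interval −1.28 to −0.47, unadjusted p = 0.00262, adjusted p = 0.964). Cma1 differed by −0.46 (−0.74 to −0.17) and Cpa3 by −0.73 (−1.32 to −0.14), with the same adjusted p. In all 3 genes wild-type replicate 2 alone also lay above both MMTV-Cre arrays, so this did not rest on wild-type replicate 1. The mast cell genes Ms4a2, Fcer1a and Tpsb2 were below the dim limit in every array. At those levels Tpsb2 was lower in both MMTV-Cre arrays, Fcer1a was higher in both, and Ms4a2 overlapped. The part of mast cells in the difference of Atp6v1f was not tested.

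The genes on either side of Atp6v1f were also read. Atp6v1fnb, named for its place beside Atp6v1f and also taken by the naming rule although it is no pump subunit, begins 928 bases after the end of Atp6v1f. Its log2 signal was 2.39 and 2.66 in MMTV-Cre, against 2.88 and 2.93 in wild-type, a difference of −0.38. Both MMTV-Cre values lay below both wild-type values, as for Atp6v1f, but its mean of 2.71 was under the dim limit and it was not tested. The next measured genes did not separate the groups. Flnc, which encodes a filamin and lies 5894 bases before Atp6v1f, differed by −0.07 (95% interval −0.46 to 0.33), Ccdc136 by 0.13 (−0.29 to 0.56) and Opn1sw, which encodes a cone opsin, by −0.06 (−0.46 to 0.34). On the far side Kcp, which overlaps Atp6v1fnb and was dim, differed by −0.07, and Tnpo3, an importer of proteins into the nucleus, by −0.04 (−0.32 to 0.25).

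The partners of subunit F in the pump had smaller differences. Atp6v1d, subunit D, forms the rotor shaft together with subunit F. It stood at 7.44 and 7.27 in MMTV-Cre, against 7.21 and 7.33 in wild-type, with overlapping groups and a log2 difference of 0.08 (95% interval −0.24 to 0.39). Besides Atp6v1f the 9 tested V1 genes had a median difference of 0.08 and a range of −0.12 to 0.31. Among them 2 were lower (22.2%, background 16.5%) and 3 higher (33.3%, background 16.7%) in both MMTV-Cre arrays, and 4 overlapped.

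Stalk and regulatory subunits of V1 lay on both sides of 0. Atp6v1e1, of the outer stalk, stood at 7.40 and 7.30 in MMTV-Cre, against 7.13 and 7.09 in wild-type, a difference of 0.24 (−0.05 to 0.52, adjusted p = 0.964) with groups that did not overlap. Its stalk partner Atp6v1g1 lay the other way, at 8.41 and 8.45 in MMTV-Cre, against 8.51 and 8.58 in wild-type, a difference of −0.12 (−0.40 to 0.16). Of the 3 probe sets of Atp6v1g1, the 2 brightest agreed in direction and the dimmest differed by −0.00. Atp6v1h, subunit H, which regulates the pump, stood at 6.62 and 6.95 in MMTV-Cre, against 6.46 and 6.64 in wild-type, so the groups overlapped by a narrow margin (difference 0.23, −0.17 to 0.64). Atp6v1c1, the subunit that joins the stalks, differed by −0.01 (−0.28 to 0.27), at 6.63 and 6.69 in MMTV-Cre, against 6.64 and 6.69 in wild-type.

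The subunits of the ATP-splitting ring include Atp6v1a, which holds the catalytic site. It differed by 0.11 (−0.17 to 0.39), at 6.06 and 6.14 in MMTV-Cre, against 5.996 and 5.990 in wild-type. Atp6v1b1, the B isoform known from acid-secreting epithelia such as the kidney's, had the largest difference of any tested V-ATPase gene other than Atp6v1f. It stood at 4.97 and 5.03 in MMTV-Cre, against 4.59 and 4.79 in wild-type, a difference of 0.31 (−0.01 to 0.63, adjusted p = 0.964). For Atp6v1b2, the widespread B isoform, the probe sets went opposite ways. The brighter one read 7.88 and 7.95 in MMTV-Cre and 8.03 and 7.95 in wild-type (difference −0.08), and the dimmer one 6.42 and 6.58 in MMTV-Cre and 6.28 and 6.31 in wild-type (difference 0.20). Neither pair of groups overlapped, so no direction can be given for that gene.

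Of the 8 V0 genes 5 were tested, and their median difference was 0.08. Atp6v0e, a small membrane subunit, had some of the tightest pairs of all members, at 7.88 and 7.86 in MMTV-Cre, against 7.68 and 7.70 in wild-type. Its difference of 0.18 (−0.09 to 0.45, adjusted p = 0.964) was small beside the interval of the model, which borrows the spread of all genes. Atp6v0b, of the proton-carrying ring, differed by 0.07, at 6.98 and 6.96 in MMTV-Cre, against 6.95 and 6.86 in wild-type, without overlap. Atp6v0d1, which couples the rotor to the membrane ring, overlapped, at 5.68 and 5.55 in MMTV-Cre, against 5.72 and 5.67 in wild-type. The subunit a isoforms Atp6v0a1 and Atp6v0a2, which help place the pump in a given compartment, differed by 0.17 (−0.21 to 0.54) and 0.08 (−0.22 to 0.39). The accessory genes Atp6ap1 and Atp6ap2 differed by −0.02 (−0.32 to 0.28) and 0.00 (−0.33 to 0.34).

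Among the 13 tested cathepsin genes the median difference was −0.02, with 4 lower (30.8%, background 16.5%) and 2 higher (15.4%, background 16.7%) in both MMTV-Cre arrays. Those with the brightest probe sets had differences near 0. The main aspartic protease gene Ctsd stood at 8.44 and 8.30 in MMTV-Cre, against 8.32 and 8.36 in wild-type, a difference of 0.03 (−0.26 to 0.33). The broad cysteine protease genes Ctsl and Ctsb differed by −0.05 (−0.32 to 0.22) and −0.02 (−0.30 to 0.26). Ctsl read 8.29 in both MMTV-Cre arrays and 8.34 in both wild-type arrays, so its groups did not overlap although they differed by so little. Ctsb read 7.73 and 7.81 in MMTV-Cre and 7.79 in both wild-type arrays. Ctsa, whose product also shields other lysosomal enzymes, Ctsh, an aminopeptidase, and Ctsz, a carboxypeptidase, differed by 0.12, −0.07 and 0.01, and Ctso by 0.02, all with overlap. Ctsc, which activates serine proteases of immune granules, was lower by 0.12 in MMTV-Cre without overlap (−0.40 to 0.16). Ctsf differed by 0.23 (−0.06 to 0.52), at 3.14 and 3.10 in MMTV-Cre, against 2.83 and 2.95 in wild-type, just above the dim limit.

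The cathepsin genes with the largest differences were ones known from immune cells and bone-resorbing or connective tissue cells. Ctse, an aspartic protease gene of immune cells and stomach lining, stood at 4.73 and 4.68 in MMTV-Cre, against 5.93 and 4.84 in wild-type. Only wild-type replicate 1 was high, 1.08 above the other 3 arrays, and it was the sole tested member at least 1 log2 unit above all others in 1 array. The difference was −0.68 (−1.59 to 0.24, adjusted p = 0.964) with all arrays and −0.13 without wild-type replicate 1. Ctsw, known from cytotoxic T and NK cells, stood at 3.70 and 4.12 in MMTV-Cre, against 4.74 and 4.27 in wild-type. Its groups did not overlap, the difference was −0.60 (−1.17 to −0.02, unadjusted p = 0.0442, adjusted p = 0.964), and it was −0.36 without wild-type replicate 1. Ctss, which trims the invariant chain for antigen presentation, stood at 5.19 and 5.58 in MMTV-Cre, against 6.15 and 5.30 in wild-type. That overlap left a difference of −0.34 (−1.14 to 0.46), which turned to 0.087 without wild-type replicate 1.

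Wild-type replicate 1, in which these 3 genes were highest, was also the array with the most T and NK cell and B cell signal. In it 0 of the 13 measured T and NK cell markers were below the dim limit, against 3 and 4 in MMTV-Cre and 4 in wild-type replicate 2. The 12 measured macrophage and dendritic cell markers summed to 265.9 and 384.5 in MMTV-Cre and to 394.8 and 328.1 in wild-type, with 5 and 3 below the dim limit in MMTV-Cre and 4 in each wild-type array. Of the B cell markers 6 and 5 were below it in MMTV-Cre, against 4 and 5 in wild-type. The 12 neutrophil and mast cell markers, a sum in which the neutrophil gene S100a8 had the highest signal, came to 150.1 and 212.5 in MMTV-Cre and 249.4 and 184.9 in wild-type, with 8 and 7 below the limit in MMTV-Cre and 6 in each wild-type array. The part of these cells in the differences of Ctse, Ctsw and Ctss was not tested. Atp6v1f was 0.12 lower in wild-type replicate 1 than in wild-type replicate 2, and its difference was as large without that array.

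Ctsk, a collagen-cutting protease of osteoclasts and fibroblasts, stood at 5.40 and 5.97 in MMTV-Cre, against 5.27 and 5.38 in wild-type. MMTV-Cre replicate 2 was the high array, and the difference of 0.36 (−0.17 to 0.90, adjusted p = 0.964) was 0.08 without it. The summed signal of 8 fibroblast markers was likewise highest in that array, at 1830 and 2146 in MMTV-Cre, against 1716 and 1783 in wild-type. None of the 8 was below the dim limit. In both MMTV-Cre arrays 4 of the 8 were higher (50%, background 16.7%) and 0 lower (background 16.5%), and 4 overlapped. Of the 5 osteoclast markers 4 were below the dim limit in every array. The part of fibroblasts in the difference of Ctsk was not tested.

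**Figure D3:**
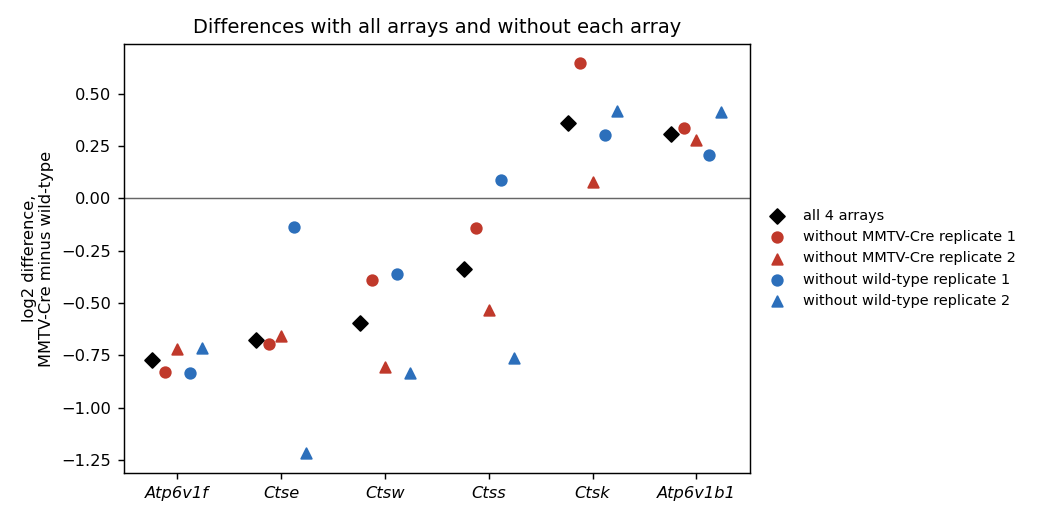
Log2 difference, MMTV-Cre minus wild-type (y axis), of Atp6v1f, the 4 cathepsin genes with the largest differences and Atp6v1b1, with all 4 arrays (black diamonds) and without each array in turn (red, MMTV-Cre; blue, wild-type; circles, replicate 1; triangles, replicate 2). Atp6v1f stays between −0.83 and −0.71, whereas Ctse runs from −1.22 to −0.13 and Ctss crosses 0.

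The 6 lysosome membrane genes overlapped between the groups without exception, where 7802 of all 11668 genes tested overlapped. Their differences ran from −0.08 to 0.09, with a median of 0.04. Cd63, a tetraspanin of late endosomes and lysosomes, stood at 8.58 and 8.62 in MMTV-Cre, against 8.60 and 8.50 in wild-type. Lamp1, a major glycoprotein of the membrane, stood at 8.36 and 8.41 in MMTV-Cre, against 8.39 and 8.34 in wild-type, a difference of 0.02 (−0.26 to 0.29). Lamp2, its relative with a part in autophagy, stood at 8.30 and 8.35 in MMTV-Cre, against 8.15 and 8.33 in wild-type, a difference of 0.09 (−0.22 to 0.40). The intervals leave room for changes of about that half-width in either direction. Scarb2, a carrier of glucocerebrosidase, differed by 0.04, the cholesterol exporter gene Npc1 by 0.04 and the channel gene Mcoln1 by −0.08.

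The 13 dim members had means from 1.18 to 2.71. Among them were isoforms known from specialised tissues, such as Atp6v0a4 of the kidney, Atp6v0d2 of osteoclasts and Atp6v1e2 of the testis, along with Atp6v1c2, Atp6v0e2 and Atp6ap1l. The rodent placental cathepsin genes Ctsj, Ctsm, Ctsq and Ctsr and the neutrophil protease gene Ctsg were also dim. In 11 of the 13 the groups overlapped. The exceptions, both lower in MMTV-Cre, were Atp6v1fnb and the kidney isoform Atp6v1g3. Atp6v1g3 stood at 1.59 and 1.66 in MMTV-Cre, against 1.92 and 1.98 in wild-type, a difference of −0.32. The members just inside the dim limit were Ctsf and Atp6v1g2, with means of 3.01 and 3.07, and those just outside were Atp6v1fnb and Atp6v1e2, with means of 2.71 and 2.51. Atp6v1g2 ranged widely, at 3.27 and 2.94 in MMTV-Cre, against 2.70 and 3.38 in wild-type.

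Other genes of lysosome function were taken from 7 lists of hydrolases, transport proteins, V-ATPase assembly factors, enzyme delivery, TFEB and nutrient sensing, cathepsin inhibitors and autophagy. Of 130 genes measured 115 were tested, 0 passed at an adjusted p under 0.05, and 4 had an unadjusted p under 0.05, against a background of 4.32%, so that such a count is near what all genes gave. Their median difference was 0.00, with 21 lower (18.3%, background 16.5%) and 24 higher (20.9%, background 16.7%) in both MMTV-Cre arrays. The medians of the single lists lay between −0.05 and 0.06.

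Those 4 genes, which did not pass after adjustment, were Vps39, Slc38a9, Atg16l1 and Gabarapl1. Vps39, of the complex that tethers vesicles to lysosomes, stood at 4.39 and 4.37 in MMTV-Cre, against 4.71 and 4.78 in wild-type, a difference of −0.36 (−0.64 to −0.09, adjusted p = 0.964). Slc38a9, an arginine sensor of the lysosome membrane, stood at 3.18 and 3.10 in MMTV-Cre, against 3.95 and 3.49 in wild-type, a difference of −0.58 (−1.04 to −0.11, adjusted p = 0.964). Both were low in both MMTV-Cre arrays, Slc38a9 near the dim end. Atg16l1, needed to attach LC3 to membranes, differed by −0.43 (−0.75 to −0.10). Gabarapl1, a relative of LC3, differed by 0.35 (0.07 to 0.62), so the autophagy genes with the smallest p lay on opposite sides. Of the 18 tested autophagy genes, 7 were higher (38.9%, background 16.7%) and 3 lower (16.7%, background 16.5%) in both MMTV-Cre arrays.

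In the remaining lists the genes with the smallest p had intervals that included 0. For hydrolases they were Aga, a glycoprotein-degrading enzyme gene (0.34, −0.06 to 0.74), Gaa, the acid glucosidase gene (0.24) and Idua (0.27), all higher in both MMTV-Cre arrays. For transport proteins they were Cln3 (−0.27, −0.60 to 0.06), Abca2 (0.22) and Tmem192 (0.21). Assembly factors of the pump gave Dmxl1 (−0.22, −0.52 to 0.08), Tmem199 (−0.25) and Ncoa7 (−0.15), each lower in both MMTV-Cre arrays, within a list whose median was 0.05. Enzyme delivery also gave Vps16 (−0.29) and Gga2 (−0.26), and nutrient sensing gave Fnip1 (0.20) and Rraga (0.11). Among inhibitors Stfa1, a stefin, was higher in both MMTV-Cre arrays, at 3.57 and 4.27 in MMTV-Cre against 3.43 and 3.06 in wild-type (0.67, −0.03 to 1.37), followed by Cst7 (−0.25) and Serpinb6a (−0.30). Becn1, an early factor of autophagy, differed by 0.21 (−0.06 to 0.49).

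**Figure D4:**
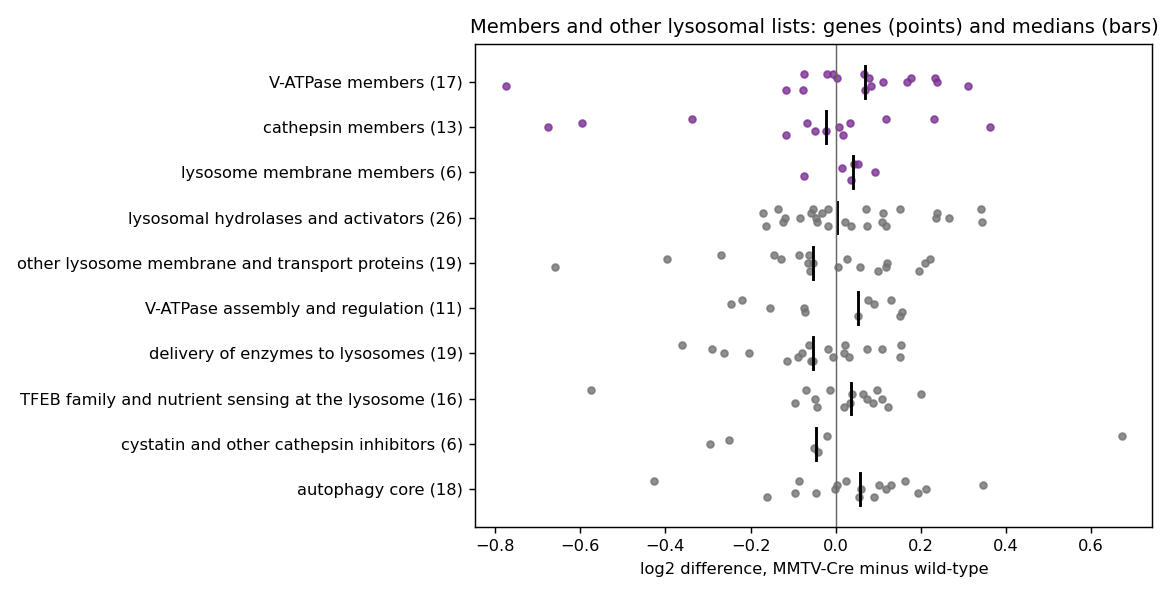
Log2 difference, MMTV-Cre minus wild-type (x axis), of the tested members in 3 classes (purple) and of 7 other lists of lysosome function (grey), with the number of tested genes in brackets. Points are genes, their vertical offset has no meaning, and black bars are medians. All medians lie within 0.1 of 0, and Atp6v1f is the lowest point at −0.77.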

How the data were processed

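The authors deposited log2 expression values per probe set. Per the submitters' processing notes these were made with the oligo package and RMA, which corrects background, equalises array distributions and summarises probes. For versions, genome build and annotation, nothing is given in the sources used here. That the scale is log2 was read from the deposited values, with array medians of 2.83 to 2.86. A shift shared by most genes cannot be seen after RMA.

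Probe sets were named by GEO's platform annotation, where 23521 of 41345 probe sets had 1 symbol, 1814 several and 16010 none here. Probe sets with several symbols or none were left out. Signals of different probe sets do not rank the amounts of different transcripts. The comparison used limma 3.58.1 under R 4.3.3 (lmFit, eBayes without trend, two-sided, Benjamini-Hochberg over 11668 genes). The procedure was tested on simulated data with planted differences larger than that of any member, so it gives nothing on the detection of smaller ones. With 2 against 2 arrays a two-sided exact permutation p cannot go below 0.333, and the number of arrays limits precision.

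The members, gene lists, tests and alternatives were chosen with earlier results of these data known. Besides Atp6v1f, array values are given for the 8 tested members of largest difference, the 3 brightest of V1, V0, cathepsins and membrane proteins, and the partners of subunit F. Each other list is represented by its 3 genes of smallest p. Array values of some further members, and of Tcirg1, Laptm5, Tfeb and Tfe3, were added after seeing them. Atp6v1fnb matched the naming rule and was counted as a member outside V1. The linear signal of a marker list is 2 to the power of the log2 signal, summed over its measured genes.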

Additional observations from a re-analysis of the deposited data

How the results depend on the processing

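The count of members past an adjusted p of 0.05 was 0 in every setting run. These were no filter, a stricter filter at a mean of 4 (which removes Atp6v1f), averaged probe sets, each probe set alone, a variance trend, quantile normalization, robust variance, median centring, the replicate number as a block, and leaving out each array. At an unadjusted p under 0.05 it was 1 of the 35 tested members besides Atp6v1f, and 504 over all genes. Atp6v1f is left out of that member count because it was chosen by its difference. The count over all genes ran from 0 to 13 without 1 array, the 13 without wild-type replicate 2, and was otherwise 0. Without 1 array, 9 to 14 members were lower and 9 to 17 higher in all MMTV-Cre arrays left, since fewer arrays separate more easily, and the median difference ran from 0.00 to 0.02. A group left with 1 array was assumed to vary like the other. Median centring gave 6 lower and 9 higher members, and quantile normalization 7 and 8. The difference of Atp6v1f ran from −0.83 to −0.71 without 1 array and was −0.76 with quantile normalization and −0.77 with median centring, and it has no other probe set here. Of the 8 other members with the largest differences, only Ctss changed sign, to 0.087 without wild-type replicate 1. The replicate number as a block left 0 genes and 0 members past the threshold. Deviations of same-numbered arrays correlated at −0.04, and the labels give the numbers no shared source, so they were not treated as pairs.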

Other observations

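The naming rule leaves out the numbered cathepsins of the rodent placental cluster. Cts3, Cts6, Cts7 and Cts8 and the related Ctsll3 all had means below the dim limit of 2.84, from 1.32 for Cts7 to 2.52 for Cts3. Their log2 differences, MMTV-Cre minus wild-type, were −0.04 for Cts3, 0.03 for Cts6, −0.17 for Cts7, 0.12 for Cts8 and −0.33 for Ctsll3. Ctsll3 was highest in wild-type replicate 1, at 1.92 and 1.83 in MMTV-Cre, against 2.44 and 1.96 in wild-type.

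The a3 subunit of the pump carries the symbol Tcirg1, so the rule does not take it. Its signal was 4.34 and 4.38 in MMTV-Cre, against 4.34 and 4.33 in wild-type, a difference of 0.03. Laptm5, a lysosomal membrane protein gene of blood cells, followed the array with lymphocyte signal, at 3.04 and 3.14 in MMTV-Cre, against 4.47 and 3.03 in wild-type. For the regulator genes Tfeb and Tfe3 the differences were −0.12 and 0.02, and Tfeb lay below the dim limit.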
